A study of Mus musculus with 12 samples.

Results

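The 38 genes described here are those of the rod photoreceptor and its light response: the enzymes and channels of phototransduction, the proteins that shut it off, the building blocks of the outer segment, the retinoid enzymes and the transcription factors of the rod. They were taken from the gene count table by a fixed list of symbols, and all 38 were found among its 50559 genes. RNA was measured in whole retinas of C57BL/6J mice at day 28, with 3 libraries in each of 4 groups. IgG mice received 30 µg of control rat IgG under the skin on day 1, and APB5 mice the same amount of APB5, an antibody that blocks PDGFRβ and so the recruitment of pericytes to growing retinal vessels. IgG+Mino and APB5+Mino mice also received minocycline, an antibiotic that dampens microglia, at 45 mg/kg from day 5 to day 27. Every group carried an injected antibody, and no group without one was compared. The antibody acts on vessels during development and is not directed at photoreceptors. With 3 mice and 3 libraries in each group, each library was taken as 1 mouse, though the labels do not tie them to animals.

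Rods are the most numerous neurons of the mouse retina and serve vision in dim light. In a rod, light activates a visual pigment in the disc membranes of the outer segment, which activates the G protein transducin. Transducin releases phosphodiesterase 6 from its inhibitory subunit, cyclic GMP falls, cyclic GMP-gated channels close and the cell hyperpolarises. Recovery needs a kinase, arrestin, the complex that speeds GTP hydrolysis on transducin, and guanylate cyclase with its calcium-sensing activators. The transcription factors CRX, NRL and NR2E3 set up this programme in development and keep it running in the adult.

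Total counts per library ranged from 52740545 to 59411044. The 38 genes took 6.79%, 6.80% and 7.57% of the counts in IgG replicates 1, 2 and 3, and 6.95%, 6.50% and 6.73% in IgG+Mino. They took 6.51%, 6.31% and 2.19% in APB5 and 5.95%, 5.73% and 5.85% in APB5+Mino. APB5 replicate 3 thus stood apart from the other 11 libraries, and the main results of the members that rest on it are given with and without it. Each member had at least 2632 counts in every library and all 38 passed the filter on low counts in every comparison, so counting error was small beside the spread between libraries.

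The groups also differed in Xist, the RNA of the inactive X chromosome, which marks female animals. Xist had 91647, 84278 and 47210 counts in IgG and 27, 27 and 20 counts in IgG+Mino. It had 5, 14 and 83956 counts in APB5 and 38, 23 and 141589 counts in APB5+Mino. IgG retinas were therefore all high and IgG+Mino retinas all low, and in both APB5 and APB5+Mino replicate 3 alone was high. Sex and minocycline cannot be told apart in IgG+Mino against IgG, nor sex and APB5 in APB5 against IgG once APB5 replicate 3 is left out. Within groups, Xist differed widely only through replicate 3 of APB5 and of APB5+Mino. Fits with Xist added, given below, rest largely on these libraries and give no separate estimate of sex.

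**Figure D1:**
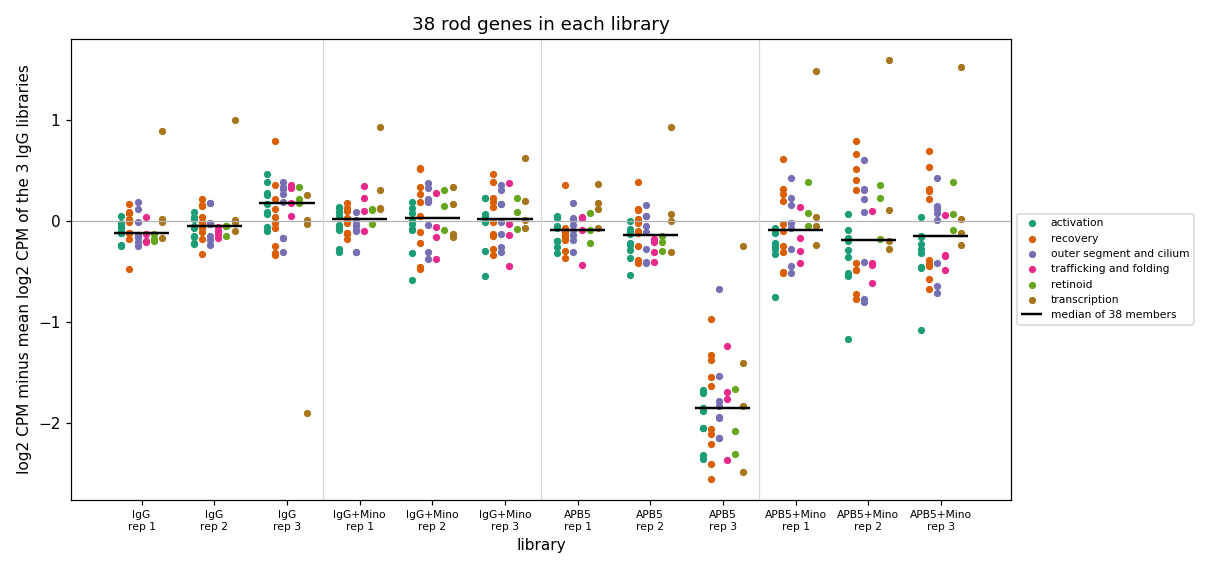
Each point is 1 of the 38 rod genes in 1 library, as log2 CPM (a count scaled by library total and TMM) minus the mean log2 CPM of the 3 IgG libraries, coloured by role, and the black line is the median of the 38 genes. The median lies at −1.85 in APB5 replicate 3 and between −0.18 and 0.18 in the other 11 libraries.

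Levels between genes were compared as CPM per kilobase of annotated exon in the IgG group, where CPM is the count of a gene scaled to a common library total with TMM factors. Gnat1, the rod transducin α subunit, was the most abundant member at 3985 CPM per kilobase. Prph2 and Rom1, the tetraspanins that shape the disc rim, followed at 1860 and 1768 CPM per kilobase, and Guca1a, a calcium-sensing activator of guanylate cyclase, at 1272. Gucy2f, a retinal guanylate cyclase, was the least abundant at 23.5 CPM per kilobase. Of the other phosphodiesterase and transducin subunits, Pde6g had 955.9, Gnb1 696.8, Pde6b 471.2, Pde6a 436.2 and Gngt1 237.6 CPM per kilobase. The length is that of all annotated exons of a gene merged, which can exceed a transcript, so this order depends on the annotation. By mean CPM alone in IgG, the rod arrestin Sag (6451) and Gnb1 (6067) stood above Prph2 (5582) and Rom1 (2683).

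IgG replicate 3 stood apart from the other IgG libraries. Over all genes its counts differed from those of replicates 1 and 2 by a chi-square of 100.8 and 87.4 per gene, where replicates 1 and 2 differed by 12.5. Of the 38 members 14 were at least 1.3-fold higher in it than the mean of the other IgG libraries and 4 at least 1.3-fold lower, a limit chosen after the values were seen. Samd7, a photoreceptor co-repressor that keeps genes foreign to rods silent, had 967.5, 1045 and 139.7 CPM in IgG replicates 1 to 3. Rcvrn, recoverin, the calcium-dependent inhibitor of the receptor kinase, had 610.1, 672.8 and 1466 CPM. The lower Samd7 value and the higher Rcvrn value both belong to replicate 3. Across the 38 genes, the log2 ratio of IgG replicate 3 to the mean of the other IgG libraries had a Spearman correlation of −0.611 with exon length, so its shorter members were relatively higher. The points share a library, and the part of this in any result was not tested.

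The promoters of the members show how far they share the motifs of the rod transcription factors. RefSeq windows of GRCm38.p6, from 250 bases before to 50 after the gene start, were on hand for 29 of the 38 genes. TAATCC, the core bound by CRX and OTX2, was present on either strand, in any window of a gene, in 13 of the 29 (44.8%) and in 8.14% of 27025 genes with such a window. TGCTGA, one arm of the Maf element that NRL binds, was present in 8 of the 29 (27.6%) and in 21.7% of all. The motifs cannot overlap each other, 3 of the 29 held both (10.3%, against 1.88% of all), and 11 held neither (37.9%, against 72.1%). A match is a stretch of letters and not a binding site.

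Windows of 250 bases before the start are shown for 4 members whose values the text below turns on, 5′ to 3′ on the strand of the gene, with TAATCC or its reverse complement in capitals. Gngt1, the transducin γ subunit (GRCm38.p6, chr6:3993758-3994007, plus strand), and Samd7 (chr3:30746043-30746292, plus strand) moved in opposite directions in APB5+Mino retinas, and both held 1 match, at 44 and 139 bases before the start. Gucy2f (chrX:142196937-142197186, minus strand) had the lowest relative level of all members in APB5 replicate 3 and held 2 matches, at 84 and 59 bases. Pdc, phosducin, which binds transducin βγ (chr1:150319167-150319416, plus strand), had neither motif.
Gngt1: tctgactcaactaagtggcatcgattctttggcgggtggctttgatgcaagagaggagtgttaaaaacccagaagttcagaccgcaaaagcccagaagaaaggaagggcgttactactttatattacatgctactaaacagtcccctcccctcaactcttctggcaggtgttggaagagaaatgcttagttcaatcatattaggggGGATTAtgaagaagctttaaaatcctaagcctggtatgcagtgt
Samd7: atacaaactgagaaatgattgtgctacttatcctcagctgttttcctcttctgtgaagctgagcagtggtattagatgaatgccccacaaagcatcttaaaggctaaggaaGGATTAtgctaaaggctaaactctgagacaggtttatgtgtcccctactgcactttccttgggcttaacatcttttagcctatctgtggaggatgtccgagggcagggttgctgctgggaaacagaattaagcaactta
Gucy2f: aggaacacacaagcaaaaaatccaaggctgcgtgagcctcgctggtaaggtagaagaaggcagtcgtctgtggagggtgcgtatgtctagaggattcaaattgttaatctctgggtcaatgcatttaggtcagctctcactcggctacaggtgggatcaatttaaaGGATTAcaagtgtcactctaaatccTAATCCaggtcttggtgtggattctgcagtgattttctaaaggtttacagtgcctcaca
Pdc: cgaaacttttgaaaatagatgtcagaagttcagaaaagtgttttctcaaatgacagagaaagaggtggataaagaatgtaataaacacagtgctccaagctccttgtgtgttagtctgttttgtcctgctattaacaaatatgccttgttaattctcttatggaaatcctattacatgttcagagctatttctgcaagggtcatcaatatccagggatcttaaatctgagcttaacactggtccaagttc

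In APB5 replicate 3 rod transcripts of every role were low together. The members stood at a median of 30.3% of the mean of APB5 replicates 1 and 2, from 18.6% for Gucy2f to 55.7% for Impg2, a proteoglycan of the matrix around photoreceptors. Of the 38 genes, 37 had their lowest level of all 12 libraries there (97.4%, against 23.4% of the 20350 genes tested), and 36 were at or below 50% (94.7%, against 7.09%). Samd7 was the exception to the former, with its lowest level in IgG replicate 3. These are values of a single library and carry no test.

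By role, the median relative level in that library was 29.5% for the 9 activation genes, 29.7% for the 10 recovery genes, 30.9% for the 8 outer segment and cilium genes and 36.5% for the 4 genes of protein trafficking and folding. It was 26.8% for the 3 retinoid genes and 31.0% for the 4 transcription genes. Activation ran from 22.2% for Slc24a1, the rod sodium, calcium and potassium exchanger, to 40.1% for Gngt1. Nrl itself was at 20.2%, Nr2e3 at 25.7% and Crx at 36.3%. The relative level had a Spearman correlation of −0.029 with exon length across the 38 genes.

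Other lists moved with it. The median of 28 further photoreceptor genes was 37.6% and that of 12 cone genes 52.0%, whereas 13 bipolar genes stood at 111.1% and 20 amacrine, ganglion and horizontal cell genes at 128.1%. Müller glia genes, the structural glia of the retina, stood at 102.4%, and 12 gliosis genes at 763.1%. The 15 microglia and macrophage genes stood at 735.3%, the 10 pericyte and smooth muscle genes at 258.6% and the 11 pigment epithelium genes at 726.6%. Gfap, the intermediate filament of reactive glia, had 129.6, 146.5 and 1028 CPM in APB5 replicates 1 to 3, and Aif1, the gene of the microglial protein Iba1, had 0.83, 0.60 and 5.45 CPM.

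The summed level of the pigment epithelium list was 1020 CPM in APB5 replicate 3 and 58.7 to 194.1 CPM in the other 11 libraries, with Ttr its most abundant gene and none of its 11 genes at 0 in all libraries. That of the microglia list was 747.9 CPM against 37.0 to 117.5 CPM. The gliosis list summed to 5430 CPM against 327.0 to 735.0 CPM. The rod list summed to 19580 CPM against 58990 to 77720 CPM. The part of these cell types in the low rod levels was not tested, and in whole retina fewer rods and less RNA per rod cannot be told apart.

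**Figure D2:**
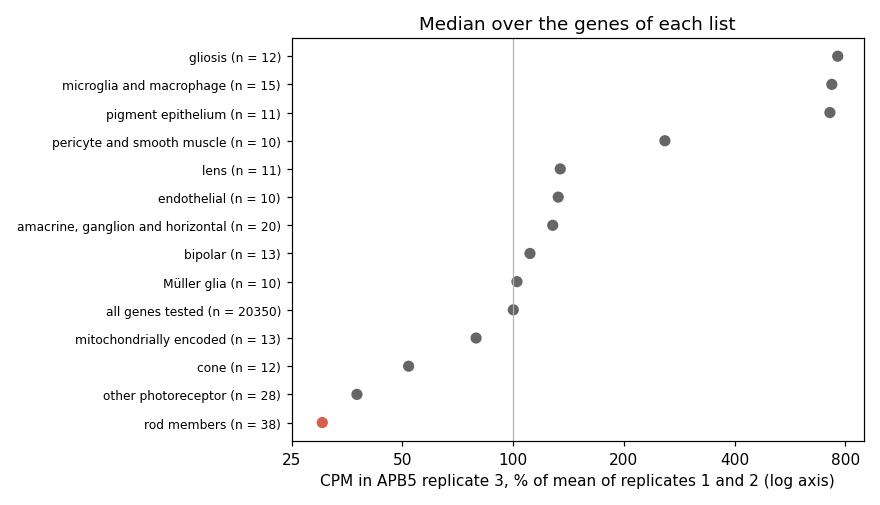
Each point is the median, over the genes of 1 list, of the CPM in APB5 replicate 3 as a percentage of the mean of APB5 replicates 1 and 2, on a log axis, with the number of genes in brackets. Rod members lie lowest at 30.3% and gliosis genes highest at 763.1%, and the median of all genes tested is 100.1%.

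APB5 against IgG retinas asks whether blocking pericyte recruitment lowered rod transcripts by day 28. All 38 members were lower in APB5 (50.4% of all genes tested were), with a median log2 fold change of −0.51 where that of all 20350 genes tested was −0.002. No member was called at an adjusted p of at most 0.05 (0 of 38; 0.0% of all genes were called), and none had an unadjusted p under 0.05 by edgeR, where 7.23% of all genes did. DESeq2 also called 0 members (0.482% of all genes). With Xist added to a joint fit of the 12 libraries the median was −1.29. Gngt1, Cnga1, Pdc, Rom1 and Tulp1 were then called lower (5 members, 13.2%, against 0.923% of all genes). That covariate rests largely on replicate 3 of APB5 and of APB5+Mino, so it cannot tell sex apart from other traits of APB5 replicate 3. In the fit of 6 libraries all 12 gliosis, 14 of 15 microglia and all 11 pigment epithelium genes were higher (medians 3.17, 1.77 and 1.34). All 28 further photoreceptor genes and all 11 lens genes were lower (medians −0.39 and −1.81). No gene of these lists was called, and their part in the rod values was not tested. In APB5 replicates 1 and 2 the gliosis list summed to 663.5 and 735.0 CPM (IgG mean 355.5). The pigment epithelium list summed to 149.7 and 130.9 CPM there (IgG mean 155.2).

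The members with the smallest p were Tulp1, which supports protein transport to the outer segment, Gngt1 and Pdc. Tulp1 had 1582, 1435 and 1585 CPM in IgG and 1131, 1155 and 452.1 CPM in APB5, which gave a fitted log2 difference of −0.75 ± 0.34 (SE; edgeR adjusted p = 0.664). Gngt1 had 1007, 902.1 and 1278 CPM in IgG and 879, 728.6 and 321.9 CPM in APB5, which gave a fitted log2 difference of −0.72 ± 0.36 (SE; edgeR adjusted p = 0.665). Pdc had 2715, 2458 and 2533 CPM in IgG and 2087, 1961 and 877.9 CPM in APB5, which gave a fitted log2 difference of −0.64 ± 0.32 (SE; edgeR adjusted p = 0.669). In each of the 3 genes all APB5 libraries lay below all IgG libraries, and APB5 replicate 3 lay far below the other APB5 libraries.

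The same held for 8 of the 38 members, which also included Pde6b, the channel subunit Cnga1, Slc24a1, the rod arrestin Sag and Rom1. That is 21.1% of the members, against 7.86% of all genes tested that were lower without overlap. The median was −0.77 without APB5 replicate 1 and −0.46, with 0 members called, without IgG replicate 3. Without APB5 replicate 3, 31 members were lower and 7 higher (50.1% of all genes were lower), the median was −0.12 and 0 were called (0.101% of all genes were). Tulp1, Gngt1 and Pdc then had log2 fold changes of −0.42, −0.40 and −0.34, and unadjusted p of 0.00588, 0.0517 and 0.0169 (edgeR). In that fit 8 members were lower without overlap (21.1%, against 12.5% of all genes) and Nr2e3 was higher (2.63%, against 11.5%).

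APB5+Mino against APB5 asks whether minocycline altered rod transcripts after APB5. It shares the APB5 libraries with the comparison above, so a low APB5 replicate 3 lowers one set of values and raises the other. Of the 38 members 32 were higher and 6 lower in APB5+Mino (48.5% of all genes were higher), with a median log2 fold change of 0.36 (−0.02 over all 20281 genes tested). No member was called, where 4.82% of all genes were, and DESeq2 called 1 (5072 of all 20281 genes). With Xist added to the joint fit 10 members were called, all higher (26.3%, against 12.2% of all genes). At an unadjusted p under 0.05 edgeR passed Samd7 alone (2.63%, against 35.9% of all genes). The median was 0.61 without APB5 replicate 1 and 0.56 with the replicate number as a block.

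Several lists of other cell types were lower in the same comparison. All 12 gliosis genes were lower in APB5+Mino, with a median log2 fold change of −3.51, and Edn2, an endothelin made by stressed photoreceptors, and the growth factor gene Fgf2 fell, at −3.56 and −1.80. All 15 microglia and macrophage genes were lower, with a median of −3.10, and Cx3cr1 fell at −3.84, while all 11 pigment epithelium genes were lower, with a median of −2.54 and 0 called. All 10 endothelial genes were lower, with a median of −0.82, and Cldn5, Vwf, Kdr and Tie1 fell, and all 10 pericyte and smooth muscle genes were lower, with a median of −1.32, and Rgs5 fell. Without APB5 replicate 3 the medians were −1.55 for gliosis (11 of 12 fell), −1.46 for microglia and macrophages (14 of 15 fell), −0.82 for the pigment epithelium (5 of 11 fell), −0.66 for endothelium (6 of 10 fell) and −0.54 for pericytes and smooth muscle (6 of 10 fell), and 0 genes of these lists rose. Edn2, Fgf2 and Cx3cr1 were then at −2.95, −1.49 and −3.08. With all 6 libraries the bipolar list had 2 genes that rose and 2 that fell, and 1 of the 10 Müller glia genes, Gpr37, fell. Without APB5 replicate 3, 3 of the 13 bipolar genes rose and 4 fell, and 3 Müller glia genes fell and 0 rose. Of the 20 amacrine, ganglion and horizontal cell genes 0 were called with all 6 libraries, and 2 rose and 3 fell without APB5 replicate 3. All 13 mitochondrially encoded genes were higher, with a median of 0.31, and ND4L rose. Without APB5 replicate 3 all 13 were again higher, with a median of 0.26, and 5 rose and 0 fell. The summed levels of the gliosis, microglia and pigment epithelium lists were highest in APB5 replicate 3, as given above, and the part of these lists in the rod values was not tested.

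Samd7 had 671.1, 998.4 and 438.9 CPM in APB5 and 1466, 1581 and 1506 CPM in APB5+Mino, which gave a fitted log2 difference of 1.11 ± 0.30 (SE; edgeR adjusted p = 0.0599). It was called without APB5 replicate 2 (adjusted p = 0.0325, edgeR; 2.63% of the members, against 20.1% of all genes). Rgs9, which speeds GTP hydrolysis on transducin, had 1248, 1852 and 544.1 CPM in APB5 and 2181, 2462 and 2304 CPM in APB5+Mino, which gave a fitted log2 difference of 0.93 ± 0.41 (SE; edgeR adjusted p = 0.153). Rdh8, a retinol dehydrogenase of the outer segment, had 171.8, 141.4 and 51.2 CPM and 213, 208.5 and 213.2 CPM, which gave a fitted log2 difference of 0.80 ± 0.39 (SE; edgeR adjusted p = 0.187). None of the 3 genes overlapped between the groups, and 12 members were higher without overlap (31.6%, against 23.2% of all genes tested).

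Without APB5 replicate 3 the members split. That fit had no block for the replicate number. In it both APB5 libraries were low in Xist and 1 of the 3 APB5+Mino libraries was high. The median log2 fold change was −0.014, with 17 members higher and 21 lower (50.5% of all genes were lower), and 12 were called (31.6%, against 26.6% of all genes). The 7 that rose in APB5+Mino were Samd7, Rgs9 with its membrane anchor Rgs9bp, the guanylate cyclases Gucy2e and Gucy2f, the axonemal protein gene Rp1l1, and Rdh8. The 5 that fell were Gngt1, Sag, Rcvrn, Rom1 and Nr2e3. The called share of the members, 18.4% higher and 13.2% lower, stood against 13.2% and 13.4% of the 20621 genes tested in that fit.

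Samd7 had the highest of these log2 fold changes at 0.86 (SE 0.16, adjusted p = 0.00707, edgeR), and Rgs9 followed at 0.58 (SE 0.16, adjusted p = 0.0280, edgeR). Rp1l1 was at 0.53 and Gucy2f at 0.50, with adjusted p of 0.00988 and 0.0195 by edgeR. Gngt1 was lowest at −0.61 (SE 0.14, adjusted p = 0.0148, edgeR), then Rcvrn at −0.53 and Sag at −0.49. Sag had 5923 and 6022 CPM in APB5 replicates 1 and 2 and 4551, 3899 and 4333 CPM in APB5+Mino. The fold change had a Spearman correlation of 0.436 with exon length across the 38 members, and of 0.25 across 18599 genes with a length, and the part of length in these calls was not tested.

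**Figure D3:**
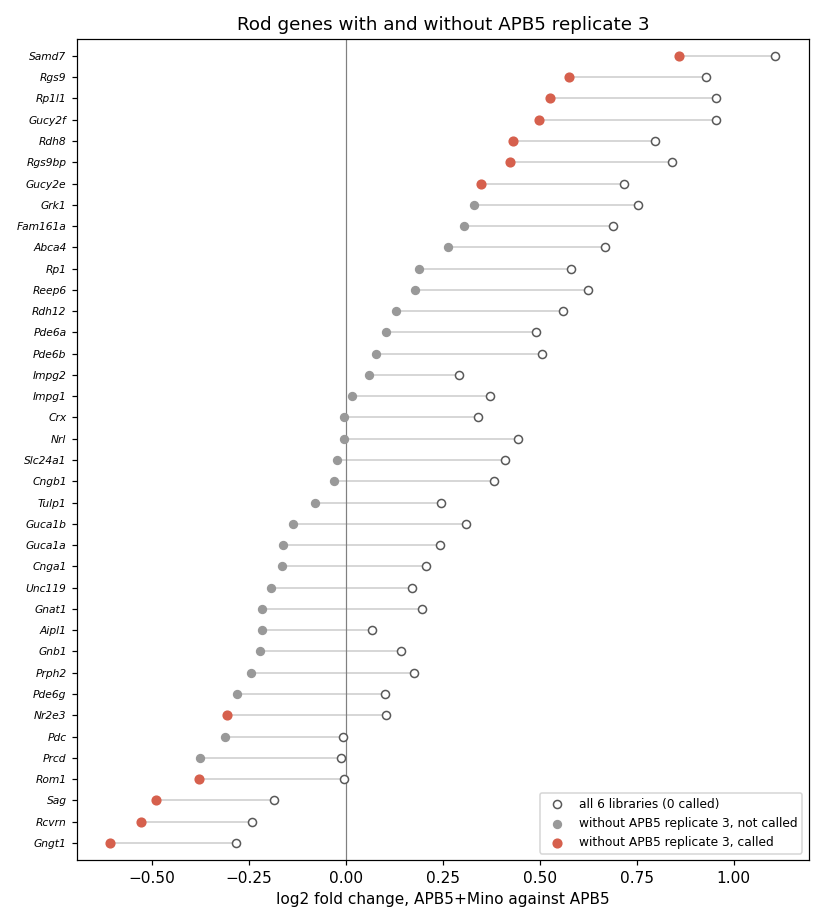
Log2 fold change of APB5+Mino against APB5 for each of the 38 rod genes, with all 6 libraries (open) and without APB5 replicate 3 (filled, red where the adjusted p was at most 0.05). Every gene moves left once that library is left out, from a median of 0.36 to −0.014, and 7 genes to the right and 5 to the left of 0 are called.

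APB5+Mino against IgG+Mino compares the antibodies in minocycline-treated mice and uses neither APB5 replicate 3 nor the IgG group. Here 9 of the 38 members were called (23.7%, against 8.09% of all genes), 8 lower and 1 higher in APB5+Mino. The 8 are 21.1% of the members, against 3.28% of all 20049 genes tested that were called lower, and the 1 is 2.63%, against 4.8%. The median log2 fold change was −0.17, with 27 members lower and 11 higher (51.1% of all genes were lower), where the median of all genes tested was −0.009. All 9 had a fold change of less than 2, and 0 passed the fold threshold of the study, a log2 fold change of at least 1 (1.23% of all genes did).

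These calls were made by edgeR in the fit of the 6 libraries compared. DESeq2 called 17 members there, 14 lower (36.8%, against 7.86% of all genes) and 3 higher (7.89%, against 9.0%). In a fit of all 12 libraries, which includes APB5 replicate 3, edgeR called 0 members and 0.0% of all genes, and none had an unadjusted p under 0.05 (17.4% of all genes did). With Xist as a covariate in that fit edgeR also called 0 members and 0.0% of all genes, passed Rp1l1 alone at an unadjusted p under 0.05 (4242 of 21228 genes), and the median turned to 0.21, with 28 members higher and 10 lower. Of the genes called by the fit of 6 libraries, Gnat1 was then at −0.075, Pde6g at −0.087, Gngt1 at −0.24, Gnb1 at 0.019, Rcvrn at −0.29, Pdc at −0.27, Rom1 at −0.13, Prph2 at 0.032 and Samd7 at 1.03. With scaling by library size only 8 members were called (7.86% of all genes), and Rom1 and Gnb1 were not among them (adjusted p = 0.0509 and 0.0569, edgeR).

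All 9 genes listed under activation were lower, and 4 of them fell. Slc24a1, the exchanger counted among the 9 (log2 fold change −0.16, not called), is not among the activation steps described above. Gnat1 had 12980, 12980 and 13900 CPM in IgG+Mino and 9449, 9721 and 9763 CPM in APB5+Mino, which gave a fitted log2 difference of −0.47 ± 0.067 (SE; edgeR adjusted p = 0.0125). Gngt1 had 849.9, 702.7 and 721.8 CPM and 622.4, 468.8 and 496 CPM, which gave a fitted log2 difference of −0.52 ± 0.12 (SE; edgeR adjusted p = 0.0399). Both transducin subunits were thus lower in every APB5+Mino library than in every IgG+Mino library. Pde6g, the inhibitory subunit of phosphodiesterase 6, had 2380, 2031 and 2142 CPM and 1780, 1483 and 1575 CPM, which gave a fitted log2 difference of −0.44 ± 0.097 (SE; edgeR adjusted p = 0.0324). The transducin β subunit Gnb1, next in order of p after the 8 genes chosen to be described in full, had a log2 fold change of −0.28 (adjusted p = 0.0463, edgeR). The catalytic subunits Pde6a and Pde6b and the channel subunits Cnga1 and Cngb1 were not called.

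The 10 recovery genes split into 5 higher and 5 lower, and 2 fell. Rcvrn had 924.8, 967.1 and 929 CPM in IgG+Mino and 685.1, 632.4 and 629.1 CPM in APB5+Mino, which gave a fitted log2 difference of −0.54 ± 0.076 (SE; edgeR adjusted p = 0.0125). Pdc had 2366, 2205 and 2347 CPM and 1796, 1502 and 1608 CPM, which gave a fitted log2 difference of −0.50 ± 0.088 (SE; edgeR adjusted p = 0.0190). For both genes the groups lay well apart. Rgs9 had a log2 fold change in the other direction and did not pass the test, though its groups did not overlap, at 1445, 2032 and 1965 CPM and 2181, 2462 and 2304 CPM.

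In the outer segment Prph2 and its partner Rom1 both fell in the fit of 6 libraries. Prph2 had 5850, 5352 and 5481 CPM in IgG+Mino and 4546, 4153 and 4128 CPM in APB5+Mino, which gave a fitted log2 difference of −0.38 ± 0.076 (SE; edgeR adjusted p = 0.0255). Rom1 had 2601, 2045 and 2224 CPM and 1851, 1524 and 1613 CPM, which gave a fitted log2 difference of −0.47 ± 0.11 (SE; edgeR adjusted p = 0.0407). The 4 trafficking and folding genes were all lower and 0 were called, and of the 3 retinoid genes 2 were lower and 0 were called.

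Among the transcription genes Samd7 rose. It had 995.6, 657.7 and 805.8 CPM in IgG+Mino and 1466, 1581 and 1506 CPM in APB5+Mino, which gave a fitted log2 difference of 0.88 ± 0.14 (SE; edgeR adjusted p = 0.0148). Its level in APB5+Mino was above that in all 9 other libraries of the series, and the other libraries ranged from 139.7 to 1045 CPM. Nrl, Nr2e3 and Crx, the factors that specify rods, were each lower and were not called.

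Over the whole list, the groups did not overlap for 17 members that were lower and 4 that were higher (Rgs9, Rp1l1, Rdh8 and Samd7). These are 44.7% and 10.5% of the members, against 17.2% and 18.0% of all genes tested. The 8 genes that fell had a median exon length of 3015.5 bases and the 29 not called one of 5689 bases. Across the 38 members the fold change had a Spearman correlation of 0.498 with exon length, and across 18162 genes with a length one of 0.263, and the part of length in the calls was not tested. By edgeR no member was called without IgG+Mino replicate 3 (0.0244% of all genes were), without APB5+Mino replicate 2 (0.0%), or without APB5+Mino replicate 3, the library high in Xist (0.00978%). The median was then −0.20, −0.17 and −0.15, and 19, 16 and 17 members had an unadjusted p under 0.05 (23.4%, 18.8% and 18.7% of all genes).

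**Figure D4:**
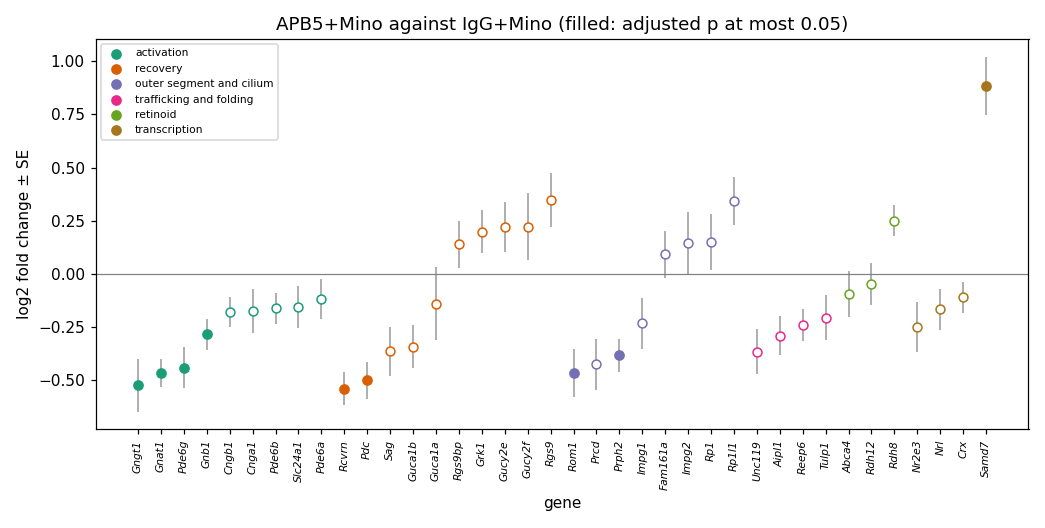
Log2 fold change of APB5+Mino against IgG+Mino with its standard error for each of the 38 rod genes, ordered by role and filled where the adjusted p was at most 0.05. The 9 genes listed under activation all lie below 0, and Samd7 lies highest at 0.88.

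IgG+Mino against IgG asks what minocycline did without APB5, and sex cannot be told apart from it. The rod genes were split between the directions, with 22 higher and 16 lower (48.6% of all genes were higher), a median log2 fold change of 0.035 and 0 called (0.0298% of all 20143 genes were). At an unadjusted p under 0.05 edgeR passed Gngt1 and Tulp1, both lower (5.26%, against 8.37% of all genes), and DESeq2 called 0 members (0.273% of all genes). The median was 0.0028, −0.0012 and 0.12 without IgG replicates 1, 2 and 3 in turn, −0.049 with scaling by library size only and −0.71 with Xist added to the joint fit, where edgeR called 0 members and 10 had an unadjusted p under 0.05 (1699 of 21228 genes). Gngt1 had 849.9, 702.7 and 721.8 CPM in IgG+Mino, each below the lowest IgG library, and its fitted log2 difference was −0.48 ± 0.15 (SE; edgeR adjusted p = 0.585). Tulp1 had 1434, 1186 and 1123 CPM and a log2 fold change of −0.29, and Reep6, a protein of membrane shaping in rods, had one of 0.33, which was 0.51 without IgG replicate 3. With Xist added to the joint fit Reep6 turned to −0.67, Gngt1 was at −1.14 and Tulp1 at −0.86. Groups did not overlap for Gngt1, Cnga1, Pdc and Tulp1, which were lower (10.5%, against 7.48% of all genes), and for Crx, which was higher (2.63%, against 6.88%).

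The interaction asks whether the effect of minocycline differed after APB5 and after IgG, in a fit of all 12 libraries. It was positive for 37 of the 38 members (48.1% of all genes), with a median of 0.37 on the log2 scale (−0.02 over all 21228 genes tested). No member was called (0.0141% of all genes were) and none had an unadjusted p under 0.05 by edgeR, where 17.1% of all genes did, and DESeq2 called 0 (2.99% of all genes). The smallest p belonged to Rdh8, Rp1l1 and Fam161a, the last a protein of the cilium, with values of 0.68, 0.82 and 0.69 (adjusted p = 0.419, 0.448 and 0.452, edgeR), which were 0.29, 0.37 and 0.29 without APB5 replicate 3. The median was 0.64 without APB5 replicate 1, 0.60 without APB5 replicate 2, −0.043 without APB5 replicate 3 and 1.44 with Xist added, where edgeR called 0 members and 29 had an unadjusted p under 0.05 (5535 of 21228 genes). Without Xist the interaction was negative for all 12 gliosis, all 15 microglia and 10 of 11 pigment epithelium genes. The medians of these lists were −3.65, −2.59 and −2.19. It was positive for 24 of 28 further photoreceptor genes (median 0.39). No gene of these lists was called, and their part in the rod values was not tested.

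**Figure D5:**
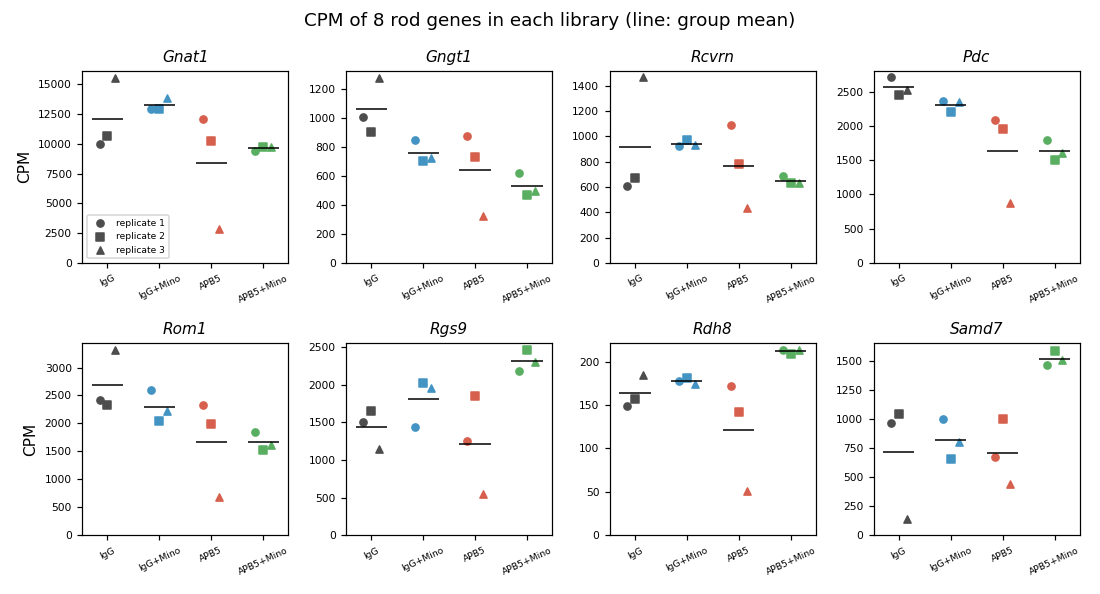
CPM of 8 rod genes in each of the 12 libraries on axes that start at 0, with a symbol per replicate number and a line at the group mean. APB5 replicate 3 is the lowest library for 7 of the 8 genes, the exception being Samd7, and in Samd7 the 3 APB5+Mino libraries lie at 1466 to 1581 CPM, above all others.

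Of 28 further photoreceptor genes outside the list, 2 rose and 2 fell in APB5+Mino against IgG+Mino, 14 were higher and 14 lower, and the median log2 fold change was −0.001. How this list differs from the rod members was not tested. Kcnv2, a potassium channel subunit of photoreceptors, had a log2 fold change of 0.56, and Lrit1, a photoreceptor synapse protein, one of 0.53 (adjusted p = 0.0186 and 0.0249, edgeR). Esrrb, a nuclear receptor that supports rod survival, had 628.7, 821.9 and 785.2 CPM in IgG+Mino and 394.5, 405 and 361.7 CPM in APB5+Mino, which gave a fitted log2 difference of −0.95 ± 0.11 (SE; edgeR adjusted p = 0.0114). Arl3, a small GTPase of ciliary transport, had one of −0.40 (adjusted p = 0.0345, edgeR). In APB5+Mino against APB5, Lrit1 was the only called gene of this list, with a log2 fold change of 0.89 (adjusted p = 0.0476, edgeR). Without APB5 replicate 3 it was at 0.71, and 10 of the 28 genes rose and 2 fell. In that comparison 0 of the 12 cone genes were called with all 6 libraries (median 0.028). Without APB5 replicate 3, 1 cone gene rose and 6 fell (median −0.26).

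Of the 12 cone genes, 2 fell in APB5+Mino against IgG+Mino and both are the cone counterparts of rod genes that fell there. Pde6h, the cone inhibitory subunit of phosphodiesterase 6, had a log2 fold change of −0.65, and Gngt2, the cone transducin γ subunit, one of −0.59 (adjusted p = 0.0196 and 0.0444, edgeR). Gnat2 and Gnb3, the cone counterparts of Gnat1 and Gnb1, were at −0.33 and −0.15 and were not called (adjusted p = 0.0805 and 0.482, edgeR). Members of several lists of other cell types fell as well, among them the endothelial tight junction gene Cldn5 at −0.84 (1 of 10 endothelial genes; 0 rose). Of 20 amacrine, ganglion and horizontal cell genes 7 fell and 0 rose, among them the calcium-binding protein genes Calb1 and Calb2 with log2 fold changes of −0.43 and −0.52. Of 15 microglia and macrophage genes 6 fell and 0 rose, among them C1qa, a subunit of complement C1q, at −0.89 and the fractalkine receptor Cx3cr1 at −2.21. Of 10 Müller glia genes 2 fell and 0 rose, and these were Rlbp1, the retinal-binding protein CRALBP, at −0.53 and Gpr37 at −0.60. The 13 bipolar genes had 1 that rose and 2 that fell, and the gliosis list 1 of each. Of the 11 pigment epithelium genes 10 were lower, with a median of −0.82 and 0 called. The part of these lists in the rod result was not tested. The lens genes, which mark lens carried along in dissection, summed to 9.23 to 2116 CPM over the 12 libraries, highest in IgG+Mino replicate 3. All 10 of those tested were lower in APB5+Mino than in IgG+Mino, with a median of −2.74 and 0 called, and their part was not tested. Pdgfrb, whose product is the target of APB5, had 15.5 ± 3.97 CPM in IgG, 16.1 ± 2.09 in IgG+Mino, 23.4 ± 13.2 in APB5 and 14.7 ± 0.381 in APB5+Mino (mean ± SD, n = 3 libraries).

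Transcript tables of the authors gave a mean normalized count per transcript and group, without replicates, and so no test. The 4 members whose shares of transcripts ranged most over the groups are given. Within Abca4, the outer segment flippase that clears retinal, a predicted transcript made up 52.9% of the gene's total in IgG, 42.3% in APB5, 31.8% in IgG+Mino and 17.4% in APB5+Mino. The minor transcript of Cnga1 made up 28.1%, 9.33%, 11.5% and 2.30% in the same order. A minor transcript of Reep6 made up 18.5%, 11.6%, 4.77% and 0.274%, and one of the pair of Crx transcripts 52.1%, 44.0%, 37.6% and 29.5%. In each of these 4 genes the share was highest in IgG and lowest in APB5+Mino. How the authors assigned reads to transcripts is not stated, and short single-end reads limit such an assignment.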

How the data were processed

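The authors made strand-specific poly-A libraries from retinal RNA, read them from a single end and mapped the reads to mouse mm39, with NCBI's annotation, in the DRAGEN RNA pipeline. The pipeline's version and its strand setting in counting are not given in the sources used here, and bcl2fastq 2.20 is named in the submitters' processing notes. Each deposited value is a raw count of reads per gene, and 3 repeated columns were identical and not used. The authors' deposited tables per transcript give a signal, the mean normalized count of each group, and their fold changes and p-values were not used.

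The members, the other lists and the tests were chosen with earlier results of these data known. With R 4.3.3 and edgeR 4.0.16, genes were filtered by filterByExpr, scaled by TMM and tested between the groups compared by the quasi-likelihood test, two-sided, with a prior count of 2 and Benjamini-Hochberg adjustment over all genes tested. Calls needed an adjusted p of at most 0.05, and the script was tested on simulated counts. SE is the size of the log2 fold change divided by the root of F. CPM used TMM over all 12 libraries. Exon lengths, each the union of all annotated exons of a gene, came from GENCODE vM39 on GRCm39, and promoters from RefSeq on GRCm38.p6.

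Genes named were, per comparison, up to 8 called members by smallest p (or the 3 with the smallest p where fewer than 3 were called), the most and least abundant members, up to 3 called genes of each other list, and Xist, Gfap, Aif1 and Pdgfrb. Any other gene was chosen after its values were seen. Alternatives were RLE scaling, library size only, no filter, at least 10 counts in every library, DESeq2 1.42.0, a joint fit of the 12 libraries, a block for the replicate number, Xist added as covariate, the study's threshold of 1 on the log2 fold change, unadjusted p, and each library left out.

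Libraries of different groups share replicate numbers. In APB5+Mino against APB5, deviations from the group means correlated by 0.119, 0.169 and 0.127 in the pairs with the same number. These were treated as pairs only in the alternative fit with a block for the number. The calls, SE and p given for that comparison come from fits without a block and ignore any pairing. Different numbers could correlate as much, as APB5 replicate 2 and IgG replicate 1 did at 0.189. In each other comparison at least 1 correlation between libraries of the same number was under 0.1. Replicates of a group all differed by more than sampling noise.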

Additional observations from a re-analysis of the deposited data

Results flagged for a closer look

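With all 12 libraries, in 3 members every library of a group moved one way and every library of the comparison group the opposite way under the same contrast, minocycline against none. Cnga1 was 0.086 to 0.32 lower on the log2 scale in the IgG+Mino libraries than the IgG mean, and 0.10 to 0.37 higher in the APB5+Mino libraries than the APB5 mean, a difference of 0.44. Tulp1 was lower after IgG and higher after APB5 in the same way, with a difference of 0.55. Rcvrn was higher in each IgG+Mino library and lower in each APB5+Mino library, with a difference of −0.28. These opposite moves were picked for their signs and were not tested as such. The interaction of the same genes in the fit of all 12 libraries was not called (adjusted p = 0.62, 0.47 and 0.789, edgeR). Without APB5 replicate 3 the log2 fold change of APB5+Mino against APB5 was −0.16 for Cnga1 and −0.080 for Tulp1, the same direction as after IgG, so their opposite moves rest on that library. For Rcvrn it was −0.53 without that library. In IgG Rcvrn had 610.1, 672.8 and 1466 CPM, and in IgG+Mino 924.8, 967.1 and 929 CPM. The size of its move after IgG, and so of the difference, therefore depends on IgG replicate 3.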

How the results depend on the processing

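Of 168 alternative values for the counts and medians of members, 146 moved by less than the limit set for a change (a factor of 1.5 for counts, 1 SD between libraries for medians). Of the rest, 10 counts were larger, 6 counts were smaller and 6 medians moved. The median changed sign under 6 alternatives, 4 of them within 1 SD. Among these 4 were the medians without APB5 replicate 3. That of APB5+Mino against APB5 went from 0.36 to −0.014 and that of the interaction from 0.37 to −0.043. A median could thus lose its whole size and stay under the limit. When Xist was added to the joint fit of 12 libraries, 5 members were called in APB5 against IgG (all lower; 0.923% of all genes), 10 in APB5+Mino against APB5 (all higher; 12.2%) and 0 in APB5+Mino against IgG+Mino. The medians were then −1.29 in APB5 against IgG, −0.71 in IgG+Mino against IgG, 0.21 in APB5+Mino against IgG+Mino and 1.44 in the interaction. Reep6 in IgG+Mino against IgG turned to −0.67, and in APB5+Mino against IgG+Mino Prph2 turned to 0.032 and Gnb1 to 0.019. DESeq2 called 1 member in APB5+Mino against APB5 (5072 of 20281 genes) and 17 in APB5+Mino against IgG+Mino, 3 higher (7.89%, against 9.0% of all genes) and 14 lower (36.8%, against 7.86%). Unadjusted p passed 1 member in APB5+Mino against APB5, 2 in IgG+Mino against IgG and 19 in APB5+Mino against IgG+Mino (29.3% of all genes there). In the last comparison the fit of all 12 libraries and the study's fold threshold each called 0. With each library left out in turn, 0 to 12 members were called in APB5+Mino against APB5 (1 without APB5 replicate 2, 12 without APB5 replicate 3) and 0 to 12 in APB5+Mino against IgG+Mino (0.0% to 16.4% of all genes), whose median ran from −0.21 to −0.15. The cause of these shifts was not tested. With Xist added, the covariate rests largely on replicate 3 of APB5 and of APB5+Mino. Sex and other traits of APB5 replicate 3 cannot be told apart there. The replicate block called 18 members in APB5+Mino against IgG+Mino, 4 higher (10.5%, against 10.4% of all genes) and 14 lower (36.8%, against 9.75%), where the libraries share a number only, with correlations of 0.172, 0.0729 and −0.019, and it changed no other count of members called. With the block, the medians were −0.73 in APB5 against IgG and 0.56 in APB5+Mino against APB5. Depth did not limit these genes, with at least 2632 counts each.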
